A study of Mus musculus with 4 samples.

Results

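The genes described are 9 regulators of the step from G1 into S phase, chosen by name: the Cip/Kip inhibitors Cdkn1a, Cdkn1b and Cdkn1c, the INK4 inhibitors Cdkn2a, Cdkn2b, Cdkn2c and Cdkn2d, the gene Mtap beside Cdkn2a, and Rb1. All 9 were found among the 56691 genes of the table, and all 9 were among the 17188 genes with enough reads to be tested. They were measured by RNA-seq in 4 sarcomas of W/+ mice, 2 from ATO-treated mice (ATO-1 and ATO-2) and 2 from control mice (PBS-1 and PBS-2). W/+ mice carry 1 mutant and 1 wild-type allele of p53 in every cell, and the labels give this genotype as p53R282W/+ for all 4 sarcomas. The treated mice had arsenic trioxide (ATO) in their drinking water at 35 mg per L from day 90 of life, and the others are labelled PBS. The tumours arose in these mice and were not implanted. The labels do not say which type of sarcoma each one was or how old each mouse was at sampling, and nothing in them states how many mice the 4 tumours came from, so p-values measure the spread between these sarcomas.

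A cyclin-dependent kinase (CDK) bound to a cyclin phosphorylates the retinoblastoma protein, the product of Rb1, and this frees E2F factors to switch on the genes for DNA replication. INK4 proteins bind the kinases Cdk4 and Cdk6 alone, whereas Cip/Kip proteins bind complexes of a cyclin with its kinase. The Cdkn2a gene makes an INK4 inhibitor, p16Ink4a, and from another first exon and reading frame p19Arf, which stabilises p53 by blocking Mdm2, and Cdkn1a, which makes p21, is a classical target of p53. Loss of the chromosome segment that holds Cdkn2a, Cdkn2b and often Mtap is a common event in tumours, sarcomas among them.

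Total counts ranged from 15259695 to 18134000 per sarcoma, and a gene at 0 reads may still hold up to 3, which is 0.151 to 0.240 CPM (counts scaled to library size with TMM factors) when counting error alone is allowed for. The sarcomas differed in make-up. Summed over 8 skeletal muscle genes, the FPKM (reads scaled to exon length and library size) was 14432 in ATO-1, 1042 in ATO-2, 6.83 in PBS-1 and 125 in PBS-2. All 8 genes were higher in both ATO sarcomas than in both PBS sarcomas, beside 12.8% of tested genes, with Tnnc2 at 0 in PBS-1. The sum over 5 adipocyte genes was 229, 1369, 12.7 and 66.2 in the same order, again with all 5 higher in both ATO sarcomas, Lep at 0 in both PBS sarcomas and Plin1 at 0 in PBS-1. Adipoq, Plin1, Cidec and Lep had at most 2 reads in each PBS sarcoma. They had enough reads to be tested only through the ATO sarcomas, so the count of 5 is no support for a difference. Osteoblast genes summed to 465 in ATO-1 against 4.69 to 12.7 in the others, with Sp7 at 0 in ATO-2 and PBS-1, and endothelial genes summed to 1011 in PBS-2 against 84.3 to 163. The 5 mesenchymal genes (Vim, Col1a1, Col1a2, Pdgfra and Pdgfrb) were detected in all 4 and summed to 801 to 3929. Of them Vim (131 and 272 against 581 and 812 FPKM) and Pdgfrb (36.2 and 23.7 against 98.6 and 70.8 FPKM) were lower in both ATO sarcomas, and the other 3 overlapped, while leukocyte genes (165 to 334) overlapped between the groups and epithelial genes summed to 1.05 to 19. The share of counts in mitochondrial genes was 14.7% in ATO-2 and 1.98% to 2.59% in the others. In bulk tumour a lower level from fewer cells of a type and from less RNA per cell cannot be told apart, and the part of this make-up in the results below was not tested.

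The sequences that separate the products of Cdkn2a and those before the starts of the genes with the clearest differences are given first. Cdkn2a (ENSMUSG00000044303) lies on the minus strand of chromosome 4 at chr4:89274471-89294653 (GRCm38, GENCODE M21). In the p16Ink4a transcript exon 1 (chr4:89281986-89282192) is joined to exon 2 (chr4:89276645-89276985), and in the p19Arf transcript the same exon 2 follows another exon 1 (chr4:89294334-89294653). The 24 bases on each side of the junction, exon 2 in capitals, show the shared exon after the 2 different first exons:
p16Ink4a junction: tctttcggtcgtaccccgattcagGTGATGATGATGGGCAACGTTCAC
p19Arf junction: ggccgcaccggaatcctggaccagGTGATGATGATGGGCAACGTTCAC
The deposited value adds the reads of both transcripts, so p16Ink4a and p19Arf cannot be told apart in any level of Cdkn2a given here.

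RefSeq (GRCm38.p6) gives start sites for 7 of the 9 genes, with 10 windows among them, each the 250 bases before a start. Cdkn1c and Rb1 have no window in this table. Those of the upstream start of Cdkn1a, both starts of Cdkn2a and Cdkn2b are shown, less any bases annotated as transcribed, because their levels did not overlap between the groups. A second window of Cdkn1a (chr17:29093519-29093768), with 2 GGGCGG, 19 CpG and no p53 match, is not shown. The window of Mtap is not shown, since nearly all of it is annotated as transcribed. In the upstream Cdkn1a window (chr17:29090729-29090978, plus strand) the capitals mark a match to the p53 consensus, and in the p19Arf window (chr4:89294654-89294869, minus strand) they mark the E2F motif TTTCCCGC and the GC box GGGCGG. The p16Ink4a window (chr4:89282193-89282442, minus strand) and the Cdkn2b window (chr4:89311040-89311282, minus strand) hold none of the motifs searched:
Cdkn1a upstream start: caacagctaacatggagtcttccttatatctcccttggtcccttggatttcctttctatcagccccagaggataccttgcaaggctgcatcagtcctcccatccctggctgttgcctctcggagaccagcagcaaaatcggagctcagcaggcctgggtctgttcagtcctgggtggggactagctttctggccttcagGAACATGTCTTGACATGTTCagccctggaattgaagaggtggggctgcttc
Cdkn2a p19Arf start: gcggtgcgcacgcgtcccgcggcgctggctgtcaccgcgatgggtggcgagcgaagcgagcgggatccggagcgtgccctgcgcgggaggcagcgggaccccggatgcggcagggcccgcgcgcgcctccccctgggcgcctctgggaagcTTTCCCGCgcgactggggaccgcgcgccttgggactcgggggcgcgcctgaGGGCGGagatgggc
Cdkn2a p16Ink4a start: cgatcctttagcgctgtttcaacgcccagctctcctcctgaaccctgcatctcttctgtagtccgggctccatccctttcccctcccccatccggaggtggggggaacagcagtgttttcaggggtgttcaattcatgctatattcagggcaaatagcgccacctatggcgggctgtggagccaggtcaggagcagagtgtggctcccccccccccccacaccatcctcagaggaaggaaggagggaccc
Cdkn2b start: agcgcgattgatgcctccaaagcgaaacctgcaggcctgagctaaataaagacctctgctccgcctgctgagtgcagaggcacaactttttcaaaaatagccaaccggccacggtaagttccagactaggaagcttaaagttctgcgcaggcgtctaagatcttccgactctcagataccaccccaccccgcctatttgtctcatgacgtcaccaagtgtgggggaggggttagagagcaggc
The p53 match in Cdkn1a is 20 bases long with 1 mismatch and ends 32 bases before the start, and 25 of 32851 RefSeq windows (0.0761%) hold such a match of 2 adjacent half-sites with at most 1 mismatch on either strand. No other window of the 9 genes holds one. The E2F motif (TTTCCCGC or TTTGGCGC, either strand) is found in 1.30% of windows and among these genes in the p19Arf window alone. GGGCGG is found in 32.7% of windows, TATAAA in 12.4% and CACGTG in 6.02%, and neither of the last 2 is in a window of the 9 genes. The p19Arf window holds 40 CpG in its 250 bases and the p16Ink4a window 7, against a median of 6. These matches describe letters and are no evidence of binding.

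With edgeR's quasi-likelihood test and Benjamini-Hochberg adjustment over all genes, 0 of the 9 genes passed the threshold of 0.05, beside 0 of 17188 genes (0%). At an unadjusted p under 0.05 there were 3, with Cdkn1a and Rb1 higher and Mtap lower in the ATO sarcomas, beside 1463 genes (8.51%), of which 935 (5.44%) were higher and 528 (3.07%) lower. DESeq2 called 1 of the 9, Cdkn1a, beside 753 of 18295 genes (4.12%). The median log2 fold change of the 9 genes was 0.03, against -0.02 over all genes tested.

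On the FPKM scale Cdkn1a and Rb1 were higher in both ATO sarcomas than in both PBS sarcomas, which 12.8% of tested genes were, and Cdkn2a, Cdkn2b and Mtap were lower in both, which 29.6% were. On the CPM scale the same 5 genes did not overlap, beside 19.7% and 20.2% of genes, and neither did they on the TPM scale, beside 9.44% and 34.7%. The count of 3 lower genes among 9 is near its FPKM background and is no result about the group as a whole.

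**Figure D1:**
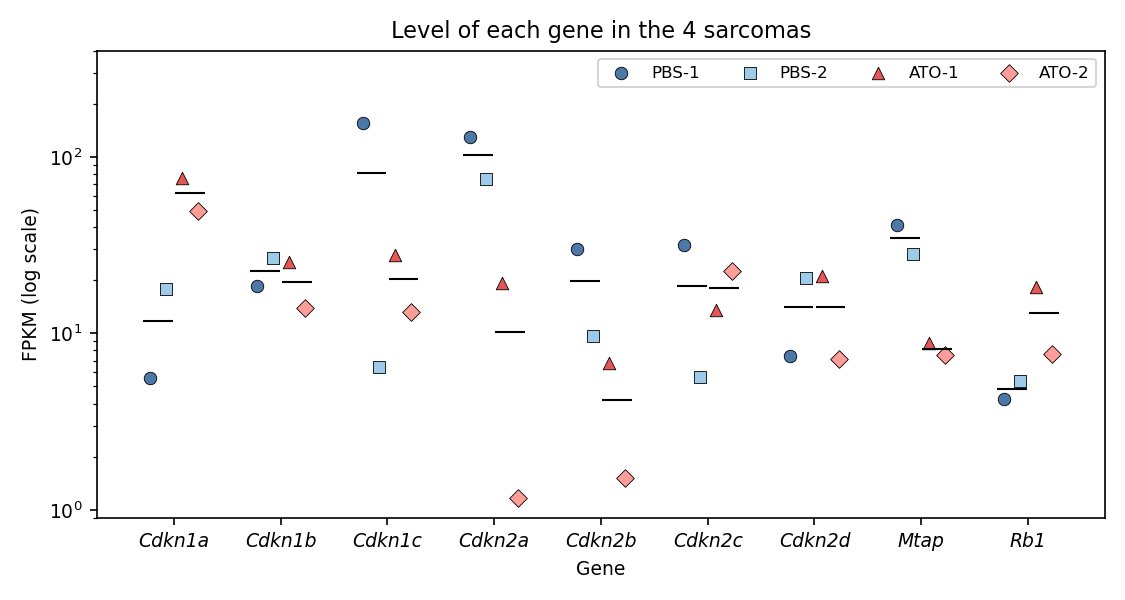
Level of each of the 9 genes in each sarcoma, as FPKM on a log scale, with 1 point per sarcoma. The 2 ATO points of Cdkn1a (75.8 and 49.4) and Rb1 lie above the 2 PBS points, those of Cdkn2a, Cdkn2b and Mtap lie below, and the points of the other 4 genes overlap.

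Cdkn1a (ENSMUSG00000023067, chr17:29090976-29100727) had the highest level of the 9 genes in both ATO sarcomas and a lower one in the controls. Its FPKM was 75.8 in ATO-1, 49.4 in ATO-2, 5.61 in PBS-1 and 17.9 in PBS-2. Both ATO sarcomas stood above both PBS sarcomas, and the lowest ATO value was well clear of the highest PBS value. The mean CPM in ATO was 241 ± 38 (SD, n = 2), and in PBS it was 38 ± 27.9 (SD, n = 2), a 6.35-fold difference in the means. The fitted log2 fold change was 2.67 (SE 0.70, 95% interval 0.84 to 4.49), with an edgeR adjusted p of 0.570. DESeq2 gave an adjusted p of 0.0193, and edgeR without a filter on low counts gave 0.0492, so the call depends on the tool and the filter. With each sarcoma left out in turn the log2 fold change ran from 2.06 to 3.71.

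Cdkn1b, which makes p27, an inhibitor controlled largely through the breakdown of its protein, was level between the groups within a wide error. Its FPKM (ENSMUSG00000003031, chr6:134920401-134925513) was 25.3 in ATO-1, 13.9 in ATO-2, 18.6 in PBS-1 and 26.8 in PBS-2. The groups overlapped, with ATO-2 lowest and ATO-1 next to PBS-2 at the top. The log2 fold change was 0.03 (SE 0.43, 95% interval -1.09 to 1.14) with an edgeR adjusted p of 0.992, and its sign turned under other scalings (-0.21 with total counts alone).

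Cdkn1c, which makes p57 and is expressed from the maternal chromosome, differed more within the controls than between the groups. Its FPKM (ENSMUSG00000037664, chr7:143458339-143461050) was 27.8 in ATO-1, 13.1 in ATO-2, 155 in PBS-1 and 6.41 in PBS-2. PBS-1 held the highest value of any of the 9 genes in any sarcoma and PBS-2 the lowest of this gene, so the ATO values lay between them. The PBS sarcomas were 24.5-fold apart in CPM, a larger log2 difference than 99.5% of tested genes showed between them. The fitted difference of -1.76 on the log2 scale (SE 1.41, 95% interval -5.44 to 1.93, edgeR adjusted p 0.754) turned to 1.91 without PBS-1.

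Cdkn2a was the leading INK4 gene of both control sarcomas and was lower in both ATO sarcomas, which were themselves far apart. Its FPKM was 19.3 in ATO-1, 1.17 in ATO-2, 129 in PBS-1 and 75.2 in PBS-2. Neither ATO value reached the lower PBS value, and ATO-2, with 21 reads, was 13.4-fold below ATO-1 in CPM. A Poisson 95% interval on those 21 reads covers 13 to 32 reads, or 0.724 to 1.79 FPKM, so counting error does not reach the next sarcoma. The mean CPM in ATO was 12.1 ± 14.7 (SD, n = 2), and in PBS it was 109 ± 41.9 (SD, n = 2), 9.04-fold higher in PBS. The log2 fold change was -3.17 (SE 1.26, 95% interval -6.46 to 0.12) with an edgeR adjusted p of 0.588, and DESeq2 gave an adjusted p of 0.0963. The log2 fold change was -6.03 without ATO-1 and between -3.52 and -2.28 without any one of the others.

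Cdkn2b (ENSMUSG00000073802, chr4:89306299-89311039) makes p15Ink4b, which cells induce in response to TGF-beta. It had an FPKM of 6.82 in ATO-1, 1.51 in ATO-2, 29.9 in PBS-1 and 9.65 in PBS-2. As with Cdkn2a, both ATO values were below both PBS values, ATO-2 was lowest and PBS-1 highest, but ATO-1 and PBS-2 were close. The log2 fold change was -2.06 (SE 0.94, 95% interval -4.52 to 0.39) with an edgeR adjusted p of 0.610, and it was -3.31 without ATO-1, -1.41 without ATO-2 and -1.01 without PBS-1. In the deposited annotation, though not in GENCODE M21, the antisense gene Gm12610 overlaps Cdkn2b, with 53, 1, 213 and 58 reads in ATO-1, ATO-2, PBS-1 and PBS-2, and without knowledge of the strand setting the reads of the pair cannot be told apart.

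Cdkn2c and Cdkn2d, which make p18Ink4c and p19Ink4d, are INK4 genes that lie away from the Cdkn2a segment. Cdkn2c (ENSMUSG00000028551, chr4:109660876-109667189) had an FPKM of 13.5 in ATO-1, 22.5 in ATO-2, 31.5 in PBS-1 and 5.63 in PBS-2. The 2 PBS sarcomas were the highest and the lowest. Cdkn2d (ENSMUSG00000096472, chr9:21288410-21291407) had an FPKM of 21.2 in ATO-1, 7.20 in ATO-2, 7.49 in PBS-1 and 20.5 in PBS-2. Its high pair and its low pair each held 1 sarcoma of each group. The log2 fold changes were 0.27 (SE 0.91, 95% interval -2.12 to 2.66, edgeR adjusted p 0.951) for Cdkn2c and 0.23 (SE 0.73, 95% interval -1.68 to 2.14, edgeR adjusted p 0.947) for Cdkn2d, and neither kept its sign when single sarcomas were left out.

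Mtap (ENSMUSG00000062937, chr4:89137122-89181081, plus strand) encodes methylthioadenosine phosphorylase, an enzyme of methionine salvage, and had the smallest standard error of the 9 genes. Its FPKM was 8.80 in ATO-1, 7.54 in ATO-2, 41.2 in PBS-1 and 28.0 in PBS-2. Both ATO values were below both PBS values, and after TMM scaling the ATO sarcomas were 1.05-fold apart. The mean CPM in ATO was 29.0 ± 1.02 (SD, n = 2), and in PBS it was 102 ± 28.5 (SD, n = 2), 3.52-fold higher in PBS. The log2 fold change was -1.81 (SE 0.40, 95% interval -2.87 to -0.76), the unadjusted p was 0.0074 and the adjusted p 0.570 in edgeR, against 0.0678 with DESeq2. It stayed between -2.08 and -1.50 with each sarcoma left out.

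Rb1 (ENSMUSG00000022105, chr14:73183673-73325822), whose product is held inactive by the kinases these inhibitors block, was higher in the ATO sarcomas. Its FPKM was 18.4 in ATO-1, 7.67 in ATO-2, 4.26 in PBS-1 and 5.40 in PBS-2. The groups did not overlap, but ATO-2 was nearer to the controls than to ATO-1. The mean CPM in ATO was 83.2 ± 37.8 (SD, n = 2), and in PBS it was 26.5 ± 4.15 (SD, n = 2), a 3.14-fold difference, and the log2 fold change was 1.65 (SE 0.49, 95% interval 0.37 to 2.93, edgeR adjusted p 0.570). It was 1.07 without ATO-1 and 2.06 without ATO-2. Rcbtb2 (594, 1248, 782 and 1067 reads in ATO-1, ATO-2, PBS-1 and PBS-2) and Lpar6 (559, 793, 421 and 1237 reads) overlap Rb1 on the opposite strand in the deposited annotation, and their part in the level of Rb1 was not tested.

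**Figure D2:**
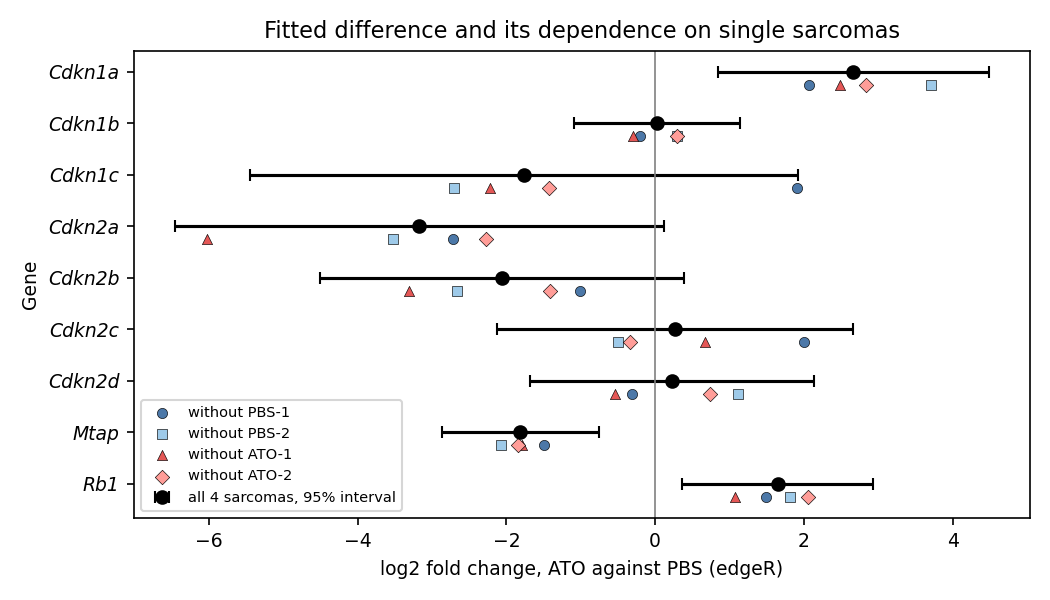
Fitted log2 fold change of ATO against PBS (edgeR) for each gene, with its 95% interval as a bar for all 4 sarcomas and a coloured point for each fit with 1 sarcoma left out. The intervals of Cdkn1a, Rb1 and Mtap exclude 0 before adjustment over all genes, and the points of Cdkn1b, Cdkn1c, Cdkn2c and Cdkn2d fall on both sides of 0.

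The order of the 9 genes by FPKM differed from sarcoma to sarcoma. Cdkn1a was first in both ATO sarcomas, followed by Cdkn1c and Cdkn1b in ATO-1 and by Cdkn2c and Cdkn1b in ATO-2. In PBS-1 the order began with Cdkn1c, Cdkn2a and Mtap and in PBS-2 with Cdkn2a, Mtap and Cdkn1b. Cdkn2a was last in ATO-2 and Rb1 last in both PBS sarcomas. Between the ATO group means, Cdkn1a stood clear of the next gene, the neighbours from Cdkn1c through Cdkn1b, Cdkn2c, Cdkn2d, Rb1, Cdkn2a and Mtap each overlapped, and Cdkn2b was below Mtap in both sarcomas. Between the PBS means, Cdkn2a overlapped Cdkn1c and Cdkn1c overlapped Mtap, Mtap was above Cdkn1b in both sarcomas, the genes from Cdkn1b through Cdkn2b, Cdkn2c and Cdkn2d to Cdkn1a overlapped in turn, and Rb1 was below all.

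The make-up of each inhibitor family also differed between the sarcomas. Summed FPKM of the 3 Cip/Kip genes was 129 in ATO-1, 76.4 in ATO-2, 179 in PBS-1 and 51.1 in PBS-2, which overlapped, and the ratio of the ATO to the PBS mean was 0.891 with all sarcomas and 2.01 without PBS-1. The 4 INK4 genes summed to 60.8 in ATO-1, 32.4 in ATO-2, 198 in PBS-1 and 111 in PBS-2. The INK4 sums did not overlap, with a ratio of 0.302 that ran from 0.210 to 0.420 with each sarcoma left out. Cdkn1a made up 58.8% and 64.7% of the Cip/Kip sum in ATO-1 and ATO-2, 3.13% in PBS-1, where Cdkn1c made up 86.5%, and 35.1% in PBS-2, where Cdkn1b led with 52.4%. Cdkn2a made up 65.2% and 67.7% of the INK4 sum in the PBS sarcomas, 31.7% in ATO-1, where Cdkn2d led with 34.8%, and 3.61% in ATO-2, where Cdkn2c led with 69.5%. The ratio of Cdkn1a to Cdkn2a, on the FPKM scale, was 3.93 in ATO-1 and 42.2 in ATO-2 against 0.0434 in PBS-1 and 0.239 in PBS-2. Neither gene overlapped between the groups, and they differed in opposite directions. Their ratio had to separate the groups and is no further support.

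**Figure D3:**
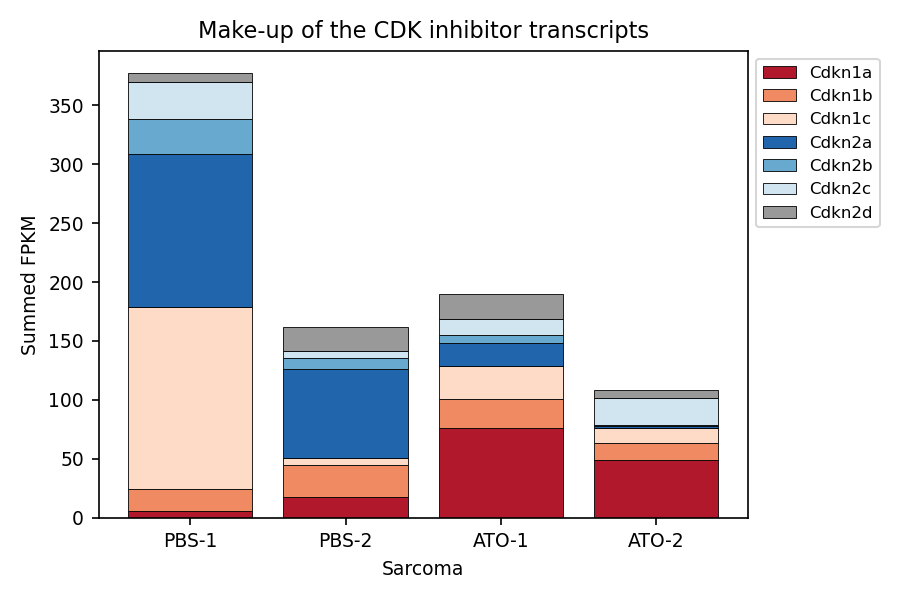
Summed FPKM of the 7 CDK inhibitor genes in each sarcoma, stacked by gene. Cdkn1a makes up 40.0% and 45.4% of the bar in ATO-1 and ATO-2 and 1.49% and 11.1% in PBS-1 and PBS-2, while Cdkn1c fills a large part of the bar in PBS-1 alone.

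Next, the genes around Cdkn2a were examined. For these distances the start of a gene is its lower coordinate, which for Cdkn2a, on the minus strand, is the end of its transcript. Genes given as before Cdkn2a therefore lie downstream of it. Within 1 Mb of its start, by the positions of the deposited table, lie 67 genes, of which 39 had no read in any sarcoma and 13 had more than 10 reads in at least 1. None of these 13 was higher in both ATO sarcomas than in both PBS sarcomas, and 10 were lower in both on the FPKM scale (9 on the CPM scale), beside 29.6% and 20.2% of all tested genes. Of the 13, Gm49890, Gm49891, Wincr1, Gm12602 and Gm12606 had more than 10 reads only in a PBS sarcoma, and the first 4 of these are among the 10, so the count is no support for a difference. Of the 9 genes tested, Gm49890 and Wincr1 passed the filter only through the PBS sarcomas. Of the other 7, the CPM of 5 (Hacd4, Mtap, Cdkn2a, Gm12610 and Cdkn2b) did not overlap and was lower in ATO, against 20.2% of all tested genes. Mtap, Cdkn2a and Cdkn2b were already described above. Gm12610, which overlaps Cdkn2b in the deposited annotation, had a CPM of 2.91 in ATO-1 and 2.92 in PBS-2. The 5 are therefore no independent support for a difference across the region.

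Beyond Mtap, on the side away from Cdkn2a, lie 4 genes of little known function that were read almost only in the controls. Wincr1, 224 kb before Cdkn2a, had 0 reads in both ATO sarcomas and 72 and 22 in PBS-1 and PBS-2, at least 12.1-fold lower in ATO when 3 counts are allowed in each library. Gm49890 (365 kb before) had 3, 1, 439 and 19 reads in ATO-1, ATO-2, PBS-1 and PBS-2, Gm12602 (175 kb before) 1, 0, 291 and 3, and Gm49891 (279 kb before) 0, 0, 18 and 2. In each of these PBS-1 was far the highest. All 4 were counted among the 13 through the PBS sarcomas alone, so no test of them is given. With edgeR 0 genes of the window passed the adjusted threshold.

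Of the other neighbours, Klhl9 and Hacd4 were closer between the groups. Klhl9, 556 kb before Cdkn2a, had 1743, 1376, 2128 and 2048 reads in ATO-1, ATO-2, PBS-1 and PBS-2 and a log2 fold change of -0.06. Hacd4, 878 kb before, had 455, 503, 1254 and 880 reads and a log2 fold change of -0.76 (edgeR adjusted p 0.687). Mrpl48-ps had 21, 9, 7 and 18 reads, Gm13274 13, 3, 5 and 5, and Gm12606, whose start is 39 kb before the start of Cdkn2a, 8, 1, 1 and 102. These 3 overlapped on the FPKM scale, were low in reads, and in Gm12606 PBS-2 alone was high. From 1 to 10 Mb on either side 52 genes were tested, 13 lower and 12 higher in both ATO sarcomas on the CPM scale, with a median log2 fold change of -0.10, the same as that of the 1017 genes tested on chromosome 4.

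Within the segment the levels did not move in proportion. The FPKM ratio of Cdkn2a to Mtap was 2.19 in ATO-1, 3.13 in PBS-1 and 2.68 in PBS-2 but 0.155 in ATO-2, and that of Cdkn2a to Cdkn2b was 2.83, 4.31 and 7.79 in the same sarcomas and 0.775 in ATO-2. Mtap itself differed little between ATO-1 and ATO-2. The copy number of the segment was not measured, and its part in these levels was not tested.

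**Figure D4:**
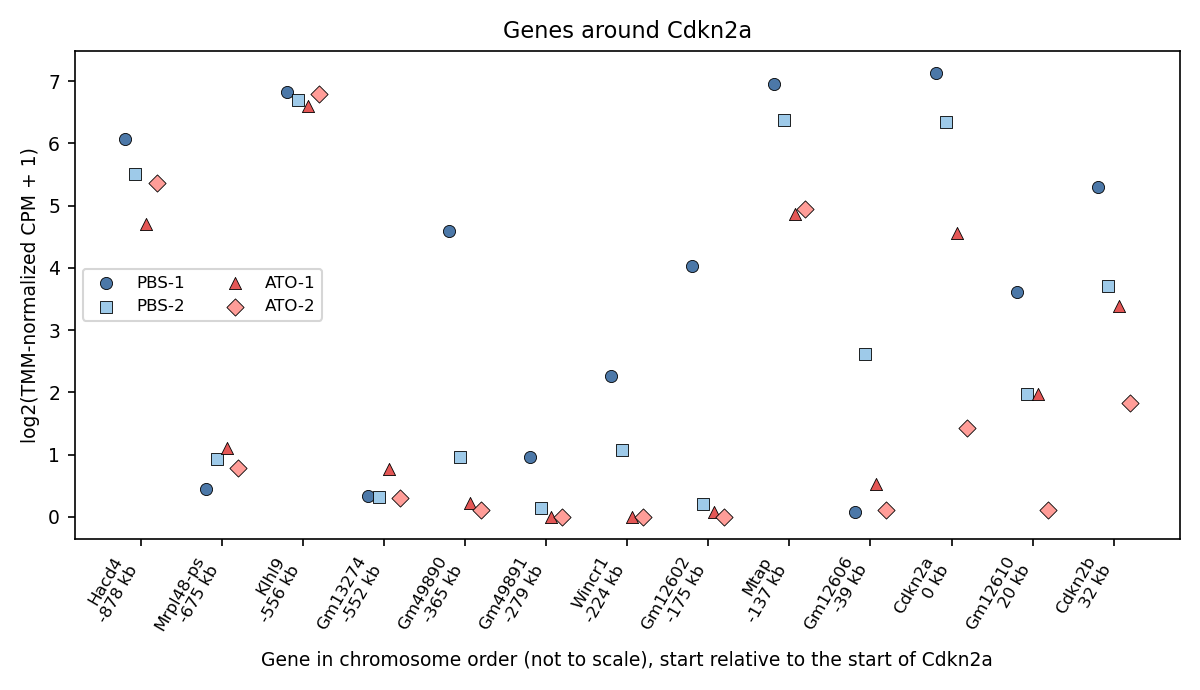
The 13 genes with more than 10 reads within 1 Mb of the start (lower coordinate) of Cdkn2a, in chromosome order, each with its distance in kb and its level in every sarcoma as log2(TMM-normalized CPM + 1). The points of Klhl9 overlap, whereas the ATO points of Mtap, Cdkn2a and Cdkn2b lie below the PBS points.

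Of the cell cycle genes around the inhibitors, 64 of 65 listed were tested and 0 passed edgeR's adjusted threshold. The fitted log2 fold change was above 0 in 22 and below 0 in 42, beside 8450 and 8738 of the 17188 tested genes. The median was -0.22 against -0.02 over all genes. The counts above and below 0 in each list that follows have this same background. In edgeR 8 had an unadjusted p under 0.05, 3 higher and 5 lower, beside 8.51%, 5.44% and 3.07% of tested genes. On the CPM scale 10 of the 65 listed genes were higher in both ATO sarcomas than in both PBS sarcomas, beside 19.7% of tested genes. A further 17 were lower in both, beside 20.2%. The 10 include the untested Trp73, which had 1, 1, 0 and 1 reads in ATO-1, ATO-2, PBS-1 and PBS-2.

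The kinase list (Cdk1, Cdk2, Cdk4, Cdk6, Cdk7 and the activating phosphatase Cdc25a) had 6 of 6 fitted log2 fold changes below 0, beside 8738 of 17188 tested genes. Its median was -0.90. Of the 6, 5 were lower in both ATO sarcomas on the FPKM and CPM scales, beside 29.6% and 20.2% of genes. The median ran from -1.15 to -0.61 with each sarcoma left out. Cdk6, a partner of D cyclins and a target of INK4 proteins, had the lowest log2 fold change, -1.60 (SE 0.46, edgeR adjusted p 0.570), with an FPKM of 3.85 and 1.75 in ATO-1 and ATO-2 and 10.8 and 9.01 in PBS-1 and PBS-2. Cdk4, the other INK4 target, had an FPKM of 20.8 and 21.8 against 63.8 and 47.7 and differed by -1.10 on the log2 scale (SE 0.41, edgeR adjusted p 0.583). Cdk2, a target of Cip/Kip proteins, overlapped and had the highest, -0.15. Of the 6 G1 cyclins 5 were fitted below 0, from Ccnd2 at -1.67 to Ccne2 at 0.02, with a median of -0.40 and none at an unadjusted p under 0.05.

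Pocket proteins and the partners of E2F were fitted above 0 in 5 of 8, with a median of 0.17. Rbl2, a relative of Rb1 that acts in resting cells, and Lin52, a subunit of the complex it forms, were higher in both ATO sarcomas. On the CPM scale 19.7% of tested genes were so. Their log2 fold changes were 1.24 (SE 0.42, edgeR adjusted p 0.570) and 1.35 (SE 0.50, edgeR adjusted p 0.580). The other Lin genes of the list, Lin9, Lin37 and Lin54, overlapped between the groups, with log2 fold changes of -0.09, 0.22 and -0.21. Tfdp2 had the highest value of the list (1.88), through ATO-1 alone, and Lin54 the lowest (-0.21). The E2F family was split evenly, 4 above and 4 below 0, from E2f2 at 2.13 to E2f7 at -0.96, with a median of 0.10. E2f2 was high in ATO-1 alone, with an FPKM of 44.6 in ATO-1, 4.36 in ATO-2, 1.99 in PBS-1 and 10.6 in PBS-2.

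Among 13 E2F target genes, which report DNA replication and proliferation, 10 were fitted below 0, with a median of -0.50 that turned to 0.08 without ATO-2 and 0.10 without PBS-1, and 1, Tyms, at an unadjusted p under 0.05. Tyms, the gene of thymidylate synthase, had the lowest log2 fold change (-1.29, edgeR adjusted p 0.583). Mki67, a proliferation marker, had the highest (0.89) with an FPKM of 45.4 in ATO-1, 1.96 in ATO-2, 16.3 in PBS-1 and 11.9 in PBS-2. The ATO sarcomas were the highest and the lowest in Mki67. Its relation to the level of Cdkn1a was not tested, and over 4 sarcomas no correlation was computed.

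The genes for the turnover of p27 and p21 were split 4 and 4, with a median of -0.11 that turned to 0.24 without ATO-2, 0.23 without PBS-1 and 0.15 with genes of mean FPKM 1 or more. Cks1b, which helps the Skp2 ligase to recognise p27, had the lowest log2 fold change (-1.88) with an FPKM of 19.6, 7.16, 92.2 and 21.8 in ATO-1, ATO-2, PBS-1 and PBS-2, so that ATO-1 and PBS-2 were close. Ubac1, of another ligase that acts on p27, had the highest (1.72), with an FPKM of 64.9, 15.9, 19.5 and 8.50 in the same order. Its groups overlapped on the FPKM scale but not on the CPM scale.

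Of 15 tested regulators of the inhibitors, 5 were fitted above and 10 below 0, with a median of -0.12. Trp53 itself, whose value does not separate the mutant from the wild-type allele, had an FPKM of 13.7 and 11.6 in ATO-1 and ATO-2 and 43.6 and 44.6 in PBS-1 and PBS-2, a difference of -1.53 on the log2 scale (SE 0.37, edgeR adjusted p 0.570). Its level was lower in the 2 sarcomas in which the level of Cdkn1a was higher, and a relation between the 2 genes was not tested. Hic1, a repressor that p53 activates, had the lowest log2 fold change (-2.44) with an FPKM of 0.98 and 4.28 against 18.3 and 18.5. Trp63, a p53 relative best known from epithelia, had 422 and 19 reads in ATO-1 and ATO-2 and 2 and 5 in PBS-1 and PBS-2, and so passed the filter through the ATO sarcomas.

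**Figure D5:**
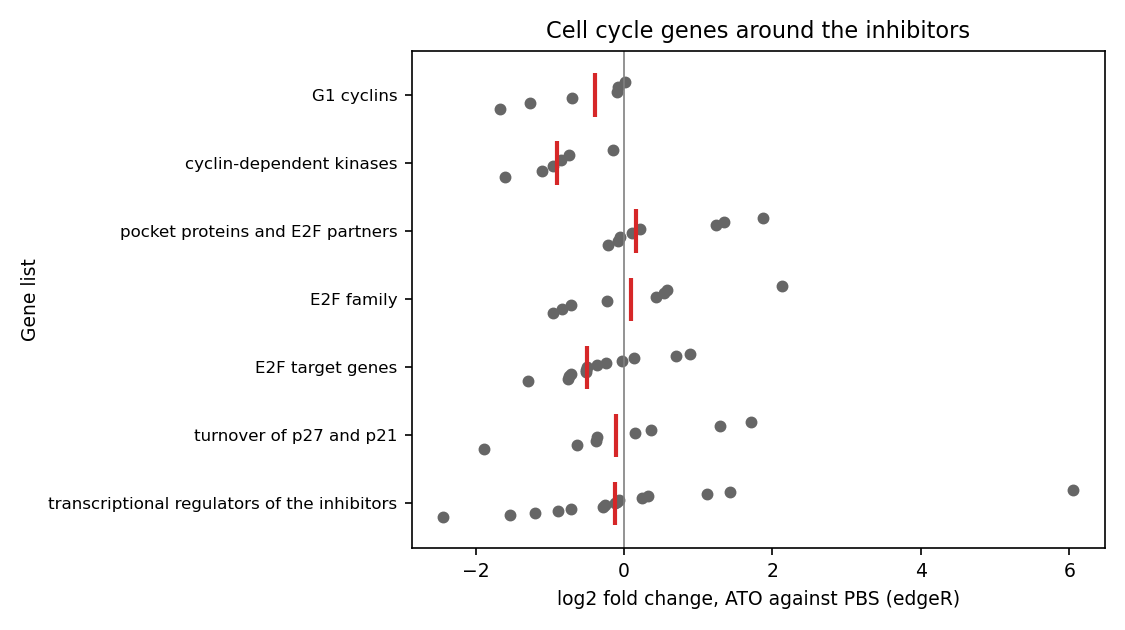
Fitted log2 fold change of ATO against PBS (edgeR) for each tested gene of the 7 cell cycle lists, with a red line at the median of each list. The points of the kinases all lie below 0, and those of the E2F family and of the turnover genes lie on both sides.

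The genes whose pattern over the 4 sarcomas was most like that of Cdkn1a were Myoz2, Scara5 and Ppp1r1a, with a root mean square distance of 0.145, 0.191 and 0.228 between centred values of log2(CPM + 1). Myoz2 is a protein of the muscle Z disc and had an FPKM of 5.20 and 2.95 in ATO-1 and ATO-2 and 0.02 and 0.72 in PBS-1 and PBS-2. Its CPM in PBS-1 was 0.0526, where the added 1 narrows differences. Its log2 fold change was 3.72 against 2.67 for Cdkn1a, so the closeness depends on that added 1. For Cdkn2a the nearest were Peg10, Troap and Btbd11, at 0.772, 0.810 and 0.886, so none lay as close. Peg10, an imprinted gene of retrotransposon origin, had an FPKM of 2.46 and 0.47 in ATO-1 and ATO-2 and 9.01 and 10.8 in PBS-1 and PBS-2. With 4 sarcomas such likeness is a description only.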

How the data were processed

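The 4 sarcomas were grouped by their labelled treatment. Trimmed reads were aligned by the authors with HISAT2, HTSeq gave the reads per gene, and the deposited counts are raw. The deposited FPKM equals each count divided by the exonic gene size they list and by the total count, within 0.005. The submitters' processing notes name FastQC 0.10.1, cutadapt 1.9.1 and HISAT2 2.0.1. Strandedness of the counting and the fate of multiply aligned reads are not given in the sources used here. For all 4 sarcomas the labels give a growth protocol for cultured cells, and they name TRIzol and a SMARTER kit where the methods name a spin column and TruSeq. The labels write the human residue (p53R282W/+) for the mouse allele. The notes name GRCm38, but 1472 of 52073 shared genes (2.83%) have the position of GENCODE M21, so positions were taken from M21 by gene identifier, and distances around Cdkn2a from the deposited table.

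The main test was that of edgeR 4.0.16 under R 4.3.3 (genes kept by filterByExpr, TMM factors for ATO-1, ATO-2, PBS-1 and PBS-2 of 1.01, 0.822, 1.09 and 1.11, quasi-likelihood F-test, two-sided, Benjamini-Hochberg over 17188 genes). The biological coefficient of variation was 62.5%. CPM used the TMM factors. An exact permutation test of 2 against 2 sarcomas cannot give a p below 0.333, so none was run. Alternatives were DESeq2 1.42.0, its size factors, total counts alone, no filter, genes of mean FPKM 1 or more, limma 3.58.1 on log2(FPKM + 1) and log2(FPKM + 0.1), a replicate block, no mitochondrial genes, robust estimation and each sarcoma left out. The tests were tried on simulated data with known changes, where the condition for passing covered edgeR alone, at a spread below that of these data. The trial is therefore no measure of what the tests recover here. Tables and figures were made in Python 3.11.15 with pandas 2.3.3, numpy 2.4.6 and matplotlib 3.10.9. The 2639 rows without a symbol carry gene identifiers and were kept.

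Named were the 9 genes, the highest and lowest tested gene of each pathway list and any past the threshold, every gene within 1 Mb of Cdkn2a with more than 10 reads in a sarcoma, and the 3 genes most like Cdkn1a and like Cdkn2a. Cdk4, Rbl2, Lin52 and Trp53 were added after their values were seen, as genes of the lists at an unadjusted p under 0.05 in edgeR, as were the flanks of 1 to 10 Mb and the motifs. The genes and lists were chosen with earlier results of these data known.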

Additional observations from a re-analysis of the deposited data

How the results depend on the processing

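Past the threshold were 0 genes in edgeR, 753 in DESeq2, 541 in edgeR without a filter, and 0 under every other alternative. Each of DESeq2 and the fit without a filter called 1 of the 9 genes (Cdkn1a), 1 of the pathway lists (Trp63) and 3 near Cdkn2a. Trp63 and those 3 had at most 5 reads in each sarcoma of 1 group and entered the test through the other group, so these calls are no support for a difference. The 5 genes whose groups did not overlap kept the direction of their log2 fold change under every alternative run, and the same 5 did not overlap on the CPM and TPM scales. Without overlap, leaving out 1 sarcoma or refitting the same counts could hardly turn the direction, so this is no separate support. With total counts alone the median of all genes moved to -0.28, and with limma on log2(FPKM + 1) and log2(FPKM + 0.1) to -0.18 and -0.27, and in these 3 fits 3 of the 9 genes, not 5, were fitted higher in ATO. Cdkn1b turned to -0.21, -0.24 and -0.25 in them, Cdkn2c to -0.040 with total counts alone, and Cdkn2d to -0.0046 and -0.0068 with limma. The median of the E2F family was -0.55 with limma on log2(FPKM + 0.1). The cause of these shifts was not tested.

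Where 1 sarcoma was left out, the lone sarcoma of its group was assumed to vary like the other group. The number of the 9 genes fitted higher ran from 3 (without ATO-1) to 4 and their median from -0.55 (without ATO-1) to -0.20, below 0 in each. The sign turned for Cdkn1b (-0.30 without ATO-1 and -0.20 without PBS-1, up to 0.29), Cdkn1c (1.91 without PBS-1, down to -2.71), Cdkn2c (-0.34 without ATO-2 and -0.50 without PBS-2, up to 2.00) and Cdkn2d (-0.55 without ATO-1 and -0.32 without PBS-1, up to 1.11). List medians ran from -2.04 to 0.29 for G1 cyclins, -0.40 to 0.49 for pocket proteins and E2F partners, -0.56 to 0.49 for the E2F family, -1.49 to 0.10 for E2F target genes, -0.21 to 0.24 for the turnover genes, -1.15 to -0.61 for the kinases and -0.51 to 0.013 for the regulators, each lowest without ATO-1 except the kinases, lowest without PBS-2, and the Cip/Kip ratio from 0.573 to 2.01.

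With the replicate number as a block, 0 genes passed and 5 of the 9 genes were fitted higher, with a median of 0.02 over them. The design text of the series speaks of sarcomas before and after ATO, whereas the labels name treated and control mice and do not say that equal numbers share an animal or a batch, and deviations of same-numbered sarcomas had a correlation of 5.04e-05 over 17188 genes.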
